A study of Mus musculus with 12 samples.

Results

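The change of the LTP effect between 1 hr and 3 hr was examined as the difference between both differences, that is the LTP minus control contrast at 3 hr less the same contrast at 1 hr, on the log2 scale. All 12 libraries of the series are part of it, and 11 of 12 entered the main model. The library left out, 1 hr control replicate 2, is the one that the study set aside as an outlier, and gene calls and list medians whose direction turned on it are also given with all 12. A positive difference means a larger LTP effect at 3 hr, and a negative one a smaller effect.

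The slices came from the hippocampus of wild-type C57BL/6 mice of 2 to 3 months, with the dentate gyrus trimmed off, and had recovered for 2 hr. Chemical LTP was induced with 50 uM forskolin for 5 min and then with forskolin, 30 mM KCl and 10 mM calcium for another 5 min. Control slices of the same animals were kept for 10 min in 0.2% DMSO, the vehicle. All were frozen 1 hr or 3 hr later, which gave 3 libraries of control and 3 of LTP slices at either time. Since the labels do not tie the animals of the time points to each other, they were treated as different animals, and a difference between 1 hr and 3 hr and a difference between these animals cannot be told apart. The model is a bulk slice with all its cell types, bathed as a whole in the stimulus. Library totals lay between 37118382 and 50815001 counts.

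Forskolin activates adenylyl cyclase, and the cAMP that it forms acts through protein kinase A on CREB, while depolarization opens calcium channels and drives the MAP kinase and SRF pathways. Genes that these pathways switch on without new protein synthesis, the immediate early genes, are known to peak early and to decline as their feedback regulators act. Later genes encode synaptic, secreted and chromatin proteins, and many of them depend on the early factors.

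The difference between the effects passed the test in 11 of 18584 genes (p adjusted by the Benjamini-Hochberg method under 0.1 in edgeR's quasi-likelihood F test). The LTP effect was larger at 3 hr in 5 of them, which is 0.0269% of the genes tested, and smaller in 6, which is 0.0323%. At an unadjusted p under 0.05 it was larger in 783 genes (4.21%) and smaller in 442 (2.38%). This balance turned on single libraries, since dropping 3 hr LTP replicate 3 gave 636 larger and 728 smaller, dropping 1 hr control replicate 3 gave 559 and 640, and dropping 3 hr LTP replicate 2 gave 1055 and 892. Over all genes the median difference was 0.00. For orientation, the LTP effect itself passed in 107 genes (0.576%) at 1 hr and in 1339 (7.21%) at 3 hr, with a fold change over 1.2. In bulk slices, fewer cells of a type and less RNA per cell cannot be told apart for any of these values.

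The 6 genes whose effect was smaller at 3 hr were Btg2, Kcnj2, Egr2, Arc, Pim3 and Gm13889. The strongest was Btg2 (chromosome 1, 134075170 to 134079120), an antiproliferative protein that recruits the CCR4-NOT deadenylase to mRNA. In replicates 1, 2 and 3 it stood at 32.6, 39.8 and 38.7 CPM, that is counts scaled per 1e+06 of the library, in 1 hr controls and at 227, 238 and 208 CPM in 1 hr LTP slices. At 3 hr it stood at 36.3, 35.8 and 35.0 CPM in controls and at 87.2, 94.8 and 88.2 CPM in LTP slices. Both sets of LTP libraries lay above all control libraries, and those of 3 hr lay below those of 1 hr. The log2 effect was 2.65 (SE 0.081) at 1 hr and 1.35 (SE 0.073) at 3 hr, a difference of -1.31 (95% interval -1.54 to -1.07, adjusted p 0.00022 in the edgeR quasi-likelihood test). Within animals 1, 2 and 3 the log2 ratio of LTP to control was 2.80, 2.58 and 2.42 for the early slices and 1.26, 1.40 and 1.33 for the late ones.

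Kcnj2 (chromosome 11, 111066164 to 111076821) encodes the inward rectifier potassium channel Kir2.1. In 1 hr controls it stood at 30.2, 31.1 and 34.7 CPM, and in 1 hr LTP slices at 59.1, 72.5 and 58.6 CPM. At 3 hr the values were 30.0, 30.1 and 29.5 CPM in controls and 32.3, 26.3 and 28.1 CPM in LTP slices, so the 3 hr groups overlapped while the 1 hr groups did not. Its effect of 0.97 (SE 0.11) at 1 hr was -0.03 (SE 0.099) at 3 hr, a difference of -1.0 (SE 0.15, 95% interval -1.32 to -0.68, adjusted p 0.031, edgeR quasi-likelihood).

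Egr2 (chromosome 10, 67535475 to 67542188), a zinc finger transcription factor of the early growth response family, kept part of its effect. It stood at 10.9, 12.3 and 11.6 CPM in 1 hr controls, 61.4, 62.7 and 60.9 CPM in 1 hr LTP slices, 10.9, 14.3 and 11.8 CPM in 3 hr controls and 28.7, 39.2 and 28.9 CPM in 3 hr LTP slices. The control groups overlapped between the time points, and the LTP groups did not. The log2 ratio within animals was 2.49, 2.34 and 2.38 for the early slices and 1.40, 1.45 and 1.28 for the late ones, and the difference was -1.06 (95% interval -1.45 to -0.67, adjusted p 0.0794, edgeR quasi-likelihood).

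Arc, Pim3 and Gm13889 share a different course, in which the control level was higher at 3 hr. Arc (chromosome 15, 74669083 to 74672570) takes part in the removal of AMPA receptors from synapses. It stood at 151, 221 and 131 CPM in 1 hr controls, 592, 538 and 533 CPM in 1 hr LTP slices, 207, 219 and 212 CPM in 3 hr controls and 504, 511 and 541 CPM in 3 hr LTP slices. The LTP groups overlapped between the time points, and 1 hr control replicate 2 lay above the 3 hr controls. Its log2 ratio in animals 1, 2 and 3 was 1.97, 1.28 and 2.03 at 1 hr and 1.29, 1.22 and 1.35 later, so that the ratios overlapped through animal 2. The difference of -0.68 (95% interval -0.90 to -0.46) passed without that library (adjusted p 0.031) and not with all 12 (-0.44, adjusted p 0.673, both edgeR quasi-likelihood). By the paper's methods, samples were sequenced if qPCR had shown a rise of Arc with LTP. Its effect at each time was thus a condition of entry and not an independent result.

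Pim3 (chromosome 15, 88862186 to 88865726), a serine/threonine kinase, changed sign. It stood at 26.5, 41.6 and 29.2 CPM in 1 hr controls, 39.6, 35.1 and 41.0 CPM in 1 hr LTP slices, 73.9, 81.8 and 82.1 CPM in 3 hr controls and 65.3, 62.5 and 66.4 CPM in 3 hr LTP slices. All 3 hr libraries lay above all 1 hr libraries, and the 3 hr LTP libraries lay below their controls. The effects of 0.47 (SE 0.085) and -0.28 (SE 0.073) differed by -0.75 (95% interval -0.99 to -0.51, adjusted p 0.031), and with all 12 libraries by -0.54 (adjusted p 0.533, both edgeR quasi-likelihood).

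Gm13889 (chromosome 2, 93955810 to 93957201) is a predicted gene of which 20.8% of the exonic bases also belong to other annotated genes, so its counts are uncertain. It stood at 16.6, 24.0 and 16.5 CPM in 1 hr controls, 48.8, 45.0 and 54.3 CPM in 1 hr LTP slices, 36.5, 39.5 and 40.6 CPM in 3 hr controls and 64.1, 64.2 and 65.3 CPM in 3 hr LTP slices. The 4 groups did not overlap. Its effect of 1.58 at 1 hr and 0.74 at 3 hr differed by -0.84 (95% interval -1.08 to -0.59, adjusted p 0.0231), and with all 12 libraries by -0.64 (adjusted p 0.351, both edgeR quasi-likelihood).

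**Figure D1:**
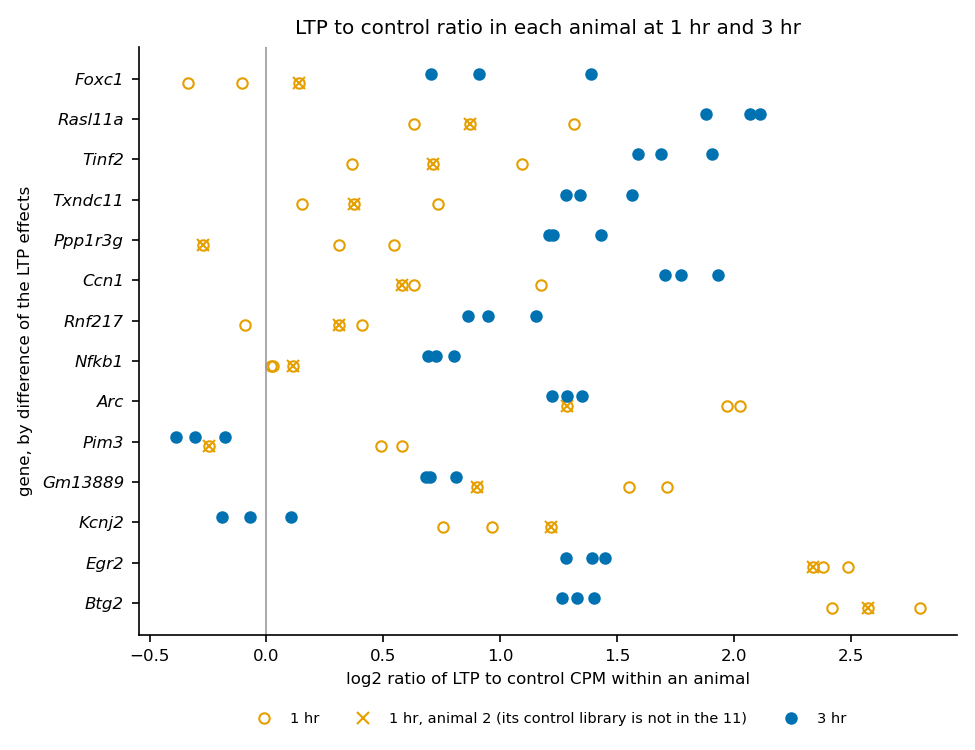
Log2 ratio of LTP to control CPM within each animal (x axis) for the 14 genes called with 11 or with 12 libraries (y axis), at 1 hr (open circles; a cross marks animal 2, whose control library is not among the 11) and 3 hr (filled circles). The 3 hr ratios of Btg2 lie from 1.26 to 1.40 and the 1 hr ratios from 2.42 to 2.80, while Arc and Pim3 overlap through animal 2.

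The 5 genes whose effect was larger at 3 hr were Nfkb1, Txndc11, Rasl11a, Rnf217 and Foxc1. Nfkb1 (chromosome 3, 135584655 to 135691547) encodes the p105 precursor of the NF-kB subunit p50. It stood at 49.4, 50.8 and 50.7 CPM in 1 hr controls and at 50.1, 54.9 and 51.6 CPM in 1 hr LTP slices, where the groups overlapped. At 3 hr it stood at 65.1, 69.1 and 65.2 CPM in controls and at 108, 112 and 114 CPM in LTP slices, with a wide gap between them. The effect of 0.06 (SE 0.066) at 1 hr and of 0.75 (SE 0.058) at 3 hr differed by 0.69 (95% interval 0.50 to 0.88, adjusted p 0.0166, edgeR quasi-likelihood).

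Txndc11 (chromosome 16, 11074911 to 11134650) encodes a thioredoxin domain protein of the endoplasmic reticulum. It stood at 34.8, 37.0 and 42.7 CPM in 1 hr controls, 57.9, 48.0 and 47.4 CPM in 1 hr LTP slices, 40.3, 37.4 and 37.5 CPM in 3 hr controls and 102, 91.2 and 111 CPM in 3 hr LTP slices. Its controls overlapped between the time points, and the 3 hr LTP libraries stood above all others. Within animals the log2 ratio was 0.73, 0.37 and 0.15 at 1 hr and 1.34, 1.28 and 1.57 at 3 hr, and the difference was 1.01 (95% interval 0.69 to 1.33, adjusted p 0.031, edgeR quasi-likelihood).

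For Rasl11a (chromosome 5, 146845071 to 146847726), a small GTPase related to Ras, the control level was lower at 3 hr and the LTP level higher. It stood at 17.2, 18.6 and 24.6 CPM in 1 hr controls, 42.9, 34.1 and 38.2 CPM in 1 hr LTP slices, 16.3, 14.1 and 13 CPM in 3 hr controls and 60.4, 59.2 and 56.4 CPM in 3 hr LTP slices. The 4 groups did not overlap. Its effect of 0.88 (SE 0.14) at 1 hr, already past the threshold, and of 2.03 (SE 0.12) at 3 hr differed by 1.16 (95% interval 0.76 to 1.55, adjusted p 0.05, edgeR quasi-likelihood).

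Rnf217 (chromosome 10, 31493193 to 31609184) encodes a RING finger ubiquitin ligase. It stood at 49.5, 45.3 and 50.3 CPM in 1 hr controls and 65.7, 56.2 and 47.2 CPM in 1 hr LTP slices, and at 51.1, 47.3 and 51.0 CPM in 3 hr controls and 98.8, 105 and 92.8 CPM in 3 hr LTP slices. The 1 hr groups overlapped, and the 3 hr LTP libraries lay above every other library. The difference was 0.83 (95% interval 0.52 to 1.13, adjusted p 0.0794, edgeR quasi-likelihood).

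Foxc1 (chromosome 13, 31806633 to 31812476) is a forkhead transcription factor known from the meninges and from mural cells of vessels. It was the lowest of the 11 in level, with 3.93, 2.96 and 3.67 CPM in 1 hr controls, 3.09, 3.27 and 3.41 CPM in 1 hr LTP slices, 2.83, 3.49 and 2.53 CPM in 3 hr controls and 5.41, 5.74 and 6.78 CPM in 3 hr LTP slices. The other 3 groups overlapped with each other, and the 3 hr LTP group lay above them. Its effects of -0.22 (SE 0.16) and 1.03 (SE 0.14) differed by 1.25 (95% interval 0.80 to 1.70, adjusted p 0.0726), and with all 12 libraries by 1.13 (adjusted p 0.12, both edgeR quasi-likelihood).

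With all 12 libraries 10 of 18240 genes passed (0.0548%), 7 with a larger and 3 with a smaller effect at 3 hr, and 7 of the 10 were among the 11. The other 3 were Ccn1, Tinf2 and Ppp1r3g, each with a larger effect at 3 hr. Ccn1 (chromosome 3, 145646976 to 145649981), a secreted matricellular protein, stood at 24.5, 35.3 and 34.9 CPM in 1 hr controls, 55.5, 52.9 and 54.1 CPM in 1 hr LTP slices, 20.7, 18.4 and 16.5 CPM in 3 hr controls and 70.9, 60.3 and 63.3 CPM in 3 hr LTP slices. Its groups did not overlap, and the difference was 1.03 with 12 libraries (adjusted p 0.0555) and 0.95 with 11 (adjusted p 0.111, both edgeR quasi-likelihood). Tinf2, a shelterin protein of telomeres, stood at 19.2, 22.3 and 25.8 CPM in 1 hr controls, 41.2, 36.6 and 33.3 CPM in 1 hr LTP slices, 26.6, 27.4 and 20.3 CPM in 3 hr controls and 80.2, 88.7 and 76.4 CPM in 3 hr LTP slices. Of its exonic bases 31.2% also belong to other annotated genes, and its difference was 1.00 with 12 libraries (adjusted p 0.0757) and 1.02 with 11 (adjusted p 0.122, both edgeR quasi-likelihood). Ppp1r3g, a subunit that targets protein phosphatase 1 to glycogen, differed by 1.12 with 12 libraries (adjusted p 0.0757) and by 1.00 with 11 (adjusted p 0.129, both edgeR quasi-likelihood). Its level was 7.47, 10.7 and 9.26 CPM in 1 hr controls, 10.9, 8.86 and 11.5 CPM in 1 hr LTP slices, 5.52, 4.73 and 4.44 CPM in 3 hr controls and 13, 11.1 and 12.1 CPM in 3 hr LTP slices.

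**Figure D2:**
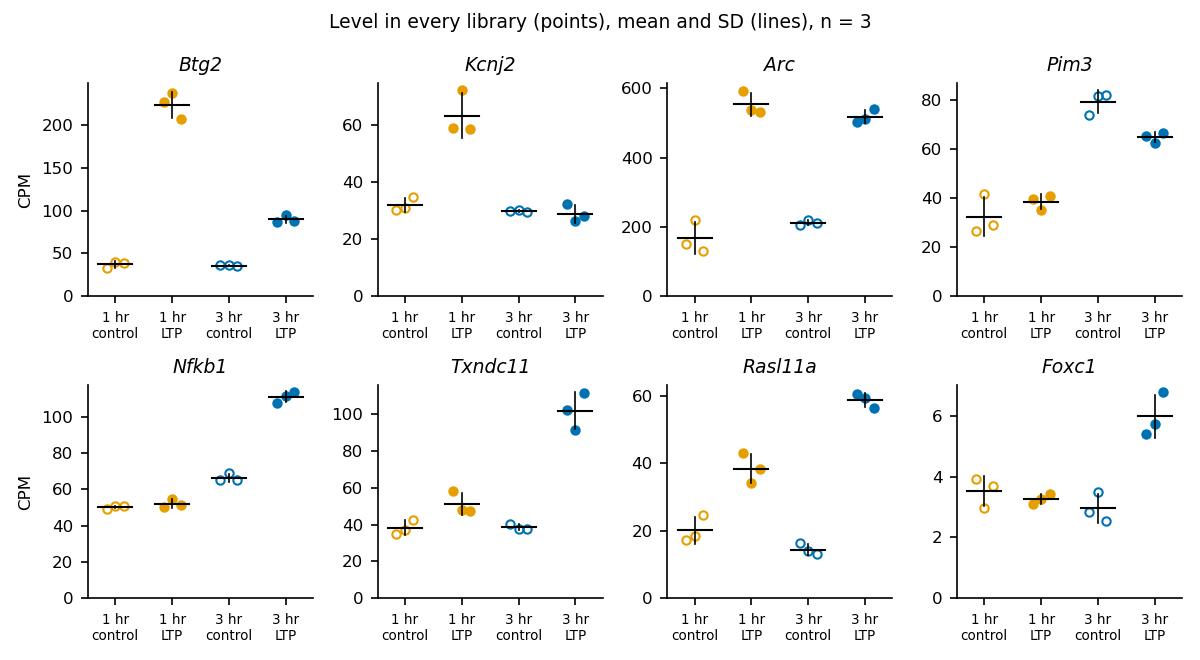
Level of 8 of the 11 genes in every library (y axis, CPM, linear and from 0) by group (x axis), with points for libraries and lines for the mean and SD of 3. Btg2 and Kcnj2 are lower in 3 hr than in 1 hr LTP slices, the controls of Arc and Pim3 are higher at 3 hr, and Nfkb1, Txndc11, Rasl11a and Foxc1 are highest in 3 hr LTP slices.

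Since the difference between the effects equals the change of the LTP slices less the change of the controls, both changes were read from the same model to see which of them moved. For Btg2 the controls changed by -0.03 and the LTP slices by -1.34, for Kcnj2 by -0.15 and -1.15, and for Egr2 by 0.11 and -0.95. In these 3 genes nearly all of the difference lay in the LTP slices. For Arc the controls changed by 0.56 and the LTP slices by -0.11, for Gm13889 by 1.21 and 0.37, and for Pim3 by 1.48 and 0.73. In these 3 the larger share lay in controls whose level was higher at 3 hr. All 3 lost their call with all 12 libraries, as did Foxc1. Among genes with a larger effect, the controls of Txndc11 and Rnf217 changed by -0.04 and -0.03 and the LTP slices by 0.97 and 0.79. Nfkb1 was higher at 3 hr in both, by 0.38 in controls and by 1.07 in LTP slices. Rasl11a (-0.56 and 0.59) and Foxc1 (-0.40 and 0.85) moved in opposite directions in controls and LTP slices, while for Ccn1 (-0.71 and 0.24) and Ppp1r3g (-0.81 and 0.19) most of the difference lay in lower controls.

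**Figure D3:**
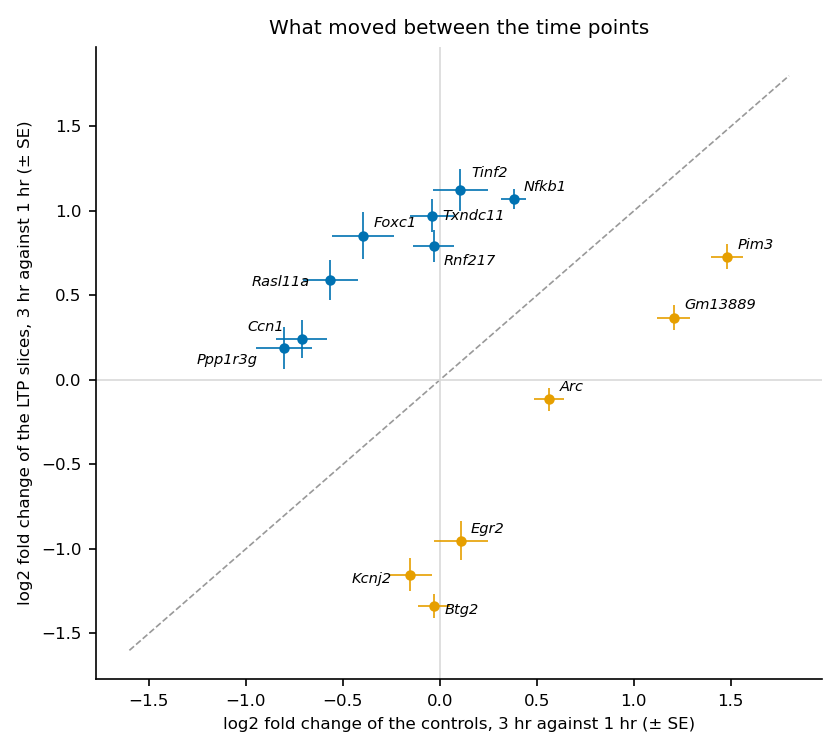
Log2 change from 1 hr to 3 hr of the controls (x axis) and of the LTP slices (y axis), each with its SE, for the 14 genes called with 11 or with 12 libraries. On the dashed line the LTP effect is the same at both times; blue genes above it have a larger effect at 3 hr, orange genes below it a smaller one, and Btg2, Kcnj2 and Egr2 lie near 0 on the x axis.

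Most calls, but not the sizes of the differences, depended on having all 11 libraries. Over the 11 fits that each left out 1 of them, the log2 difference stayed between -1.47 and -1.22 for Btg2, -1.13 and -0.88 for Kcnj2, -1.24 and -0.96 for Egr2, -0.82 and -0.61 for Arc, -0.85 and -0.70 for Pim3, and -0.90 and -0.75 for Gm13889. It stayed between 0.64 and 0.74 for Nfkb1, 0.83 and 1.12 for Txndc11, 0.84 and 1.36 for Rasl11a, 0.72 and 0.96 for Rnf217, and 1.13 and 1.37 for Foxc1. Btg2 was called in all 11 of these fits, and Nfkb1 and Gm13889 in 10 of 11. Kcnj2 was called in 7 of these fits, Arc, Txndc11 and Rasl11a in 6, Pim3 in 5, Foxc1 and Rnf217 in 4 and Egr2 in 3. Without 1 hr control replicate 3, which leaves a lone control at 1 hr that is assumed to vary like the other groups, Btg2 alone of the 11 was called and the adjusted p of the others ran from 0.168 to 0.559. Without 1 hr control replicate 1, which again leaves a lone control, the calls of Egr2, Foxc1, Kcnj2, Pim3 and Rnf217 were lost (adjusted p 0.23 to 0.445). Leaving out 3 hr control replicate 3 kept Btg2, Gm13889 and Nfkb1 (adjusted p of the others 0.119 to 0.324), and leaving out 3 hr control replicate 2 kept these and Foxc1 (0.115 to 0.414). Without 3 hr LTP replicate 1 the calls of Btg2, Gm13889, Kcnj2 and Nfkb1 remained (adjusted p of the others 0.104 to 0.319). Arc, Egr2, Foxc1 and Pim3 lost theirs when 1 hr LTP replicate 1 was dropped (0.123 to 0.21). Egr2, Foxc1, Rasl11a, Rnf217 and Txndc11 did so when replicate 2 of that group was dropped (0.102 to 0.218). With replicate 3 of it dropped, Egr2 was lost (0.107), and Foxc1 and Rnf217 without 3 hr control replicate 1 (0.183 to 0.194). No call was lost when 3 hr LTP replicate 2 or replicate 3 was left out, and all adjusted p here are from the edgeR quasi-likelihood test. With animal as a block within each time point, Txndc11 (adjusted p 0.12), Rasl11a (0.13), Foxc1 (0.19) and Rnf217 (0.14) no longer passed in the edgeR quasi-likelihood test, at differences of 0.97, 1.07, 1.26 and 0.84, and all 6 genes with a smaller effect passed. With the block and offsets for GC content and length together, all 11 passed. With the block and all 12 libraries, in which each control has its partner, Btg2, Kcnj2, Egr2, Nfkb1, Txndc11, Rasl11a and Ccn1 passed, and Rnf217, Tinf2 and Ppp1r3g, called with 12 libraries unpaired, did not.

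Promoters were inspected because CREB and SRF are the factors that forskolin and depolarization act on. RefSeq promoter sequences (GRCm38.p6, 250 bases before to 50 after each annotated start) were matched for 11 of the 14 genes called with 11 or with 12 libraries; Arc, Gm13889 and Nfkb1 had no entry. The CRE (TGACGTCA, searched on both strands, and itself holding the shorter core TGACG) was found in Btg2, with a smaller effect at 3 hr, and in Tinf2, with a larger one. It occurred in 1.79% of all 32851 promoters. A CArG box, the binding sequence of SRF, was found for Egr2 in promoters of different annotated starts, and in 1.63% of all promoters. The windows with these letters are shown 5′ to 3′ on the strand of the gene, with the matched letters in capitals.
Btg2, CRE, chr1:134079304-134079331, minus strand: ttcccaataaTGACGTCAgtgagcgatg
Tinf2, CRE, chr14:55681856-55681883, minus strand: ggggacctcgTGACGTCAcagctccctc
Egr2, CArG box, chr10:67537787-67537816, plus strand: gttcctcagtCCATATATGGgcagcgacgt
Egr2, CArG box, chr10:67537484-67537513, plus strand: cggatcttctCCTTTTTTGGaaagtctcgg
The CRE of Btg2 begins 166 bases before the annotated start and that of Tinf2 56 bases before it. The core TGACG, which the CRE includes, stood in at least 1 promoter of 6 of the 7 matched genes with a larger effect and of 2 of the 4 with a smaller one, against 23.0% of all genes with a promoter entry (20.8% of promoters). The letters TGANTCA (7.81% of all promoters) are looser than the AP-1 site, whose middle base is C or G. They were found in Tinf2 alone of the 11 genes, as TGATTCA, which is not that site. The NF-kB letters GGANTTTCC (1.25% of all promoters) were found in Btg2 alone. A match describes these letters and no site, and the CRE and its core stood in genes of both directions.

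The genes with a called LTP effect, 1339 late and 107 early, were next placed by their difference, as a description, since the calls come from the same contrasts. Both times shared 79 genes, with a median effect of 0.81 at 1 hr and 0.71 at 3 hr. A further 28 genes were called at 1 hr alone, and all 28 had a difference below 0, with a median of -0.45. Of the 1260 called at 3 hr alone, 937 rose, with a median effect of 0.11 at 1 hr and 0.46 at 3 hr, and 323 fell, with medians of -0.11 and -0.34. Among the 1260, 4 passed the test of the difference, and the 95% interval of the difference included 0 in 687 (54.5%). Of the 28 called at 1 hr alone it included 0 in 9 (32.1%). A call at 3 hr alone therefore does not show a difference for most of those genes.

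A simpler reading was made from the log2 ratios within animals. The 3 ratios at 3 hr lay above the 3 ratios at 1 hr without overlap in 1320 genes (7.1%) and below them in 1187 (6.39%). These counts changed to 2417 and 2621 without animal 2 at 1 hr, where 2 ratios were set against 3. Of the 11 genes, 9 did not overlap, and Arc and Pim3 did. The 11 were called from the same contrast of these data, so their separation is no independent support.

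Gene lists were described by their counts and median, beside a median of 0.00 and shares of 4.21% and 2.38% with an unadjusted p under 0.05 over all genes. The share of all genes with a difference above 0 was 51.1%. Early response transcription factors, many of which are known to respond first to calcium and cAMP, had a median difference of -0.18, the lowest of the 28 lists with 11 libraries. With all 12 it was -0.10, with 3 larger and 5 smaller at an unadjusted p under 0.05, and no longer the lowest. Of 30 measured, 20 lay below 0, and 3 had a larger and 7 a smaller effect at 3 hr at an unadjusted p under 0.05, of which Foxc1 and Egr2 passed over all genes. With 3 hr LTP replicate 3 dropped, 15 had a smaller effect, beside 728 of all genes, and over the fits that each left out 1 library the median ran from -0.25 to -0.11. The LTP effect passed upward at 1 hr in 19 of the 30, and Foxc1 was not among them. Their median effect was 0.69 at 1 hr and 0.72 at 3 hr, so the medians of the effects and the median of the differences point in opposite directions. Junb, a partner in the AP-1 factor, stood at 110, 164 and 116 CPM in 1 hr controls, 412, 300 and 402 CPM in 1 hr LTP slices, 144, 179 and 180 CPM in 3 hr controls and 277, 274 and 317 CPM in 3 hr LTP slices. Its 1 hr LTP replicate 2 lay within the range of the 3 hr LTP libraries. The effect of 1.71 at 1 hr and of 0.80 at 3 hr differed by -0.91, which did not pass in the unpaired model (adjusted p 0.128). It passed with animal as a block over the 11 libraries (adjusted p 0.0118, both edgeR quasi-likelihood). Npas4, a neuronal activity factor, stood at 119, 128 and 156 CPM in 1 hr LTP slices and at 48.2, 47.7 and 75.2 CPM in 3 hr LTP slices, above controls of 18.7 to 31.6 CPM at both times. Its difference of -1.16 did not pass in the unpaired model either (adjusted p 0.236) and passed with the block over 11 libraries (0.0675, both edgeR quasi-likelihood). With all 12 libraries neither passed unpaired (adjusted p 0.407 for Junb and 0.351 for Npas4, edgeR quasi-likelihood). Neither passed with the block and all 12 libraries, in which each control has its partner.

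In the main fit, regulators that feed back on kinases and on RNA were the list with the most members whose effect was smaller at 3 hr at an unadjusted p under 0.05. Of 32 measured, 23 lay below 0, with a median of -0.17, and 11 had a smaller and 1 a larger effect at an unadjusted p under 0.05. This rank did not hold in every fit. Ribosomal proteins had more members with a smaller effect without 3 hr LTP replicate 2 (21 against 12) and with animal as a block (13 against 11). Early response factors had more without 3 hr LTP replicate 3 (15 against 14). Btg2 and Pim3 passed toward a smaller effect and Rnf217 toward a larger one. The list also holds Rnf217, a ubiquitin ligase, and Ciart, a clock repressor, so its name does not cover all members. The list's median effect was 0.48 at 1 hr and 0.36 at 3 hr, and its median ratio in animals 1, 2 and 3 was 0.50, 0.36 and 0.47 at 1 hr and 0.39, 0.28 and 0.52 at 3 hr, which overlapped. Ciart, a repressor of the circadian clock that is also in this list, stood at 13.8, 15.2 and 15.3 CPM in 1 hr controls, 29.2, 25.9 and 27.9 CPM in 1 hr LTP slices, 12.2, 11.5 and 13.8 CPM in 3 hr controls and 17.0, 14.5 and 16.3 CPM in 3 hr LTP slices. Its difference of -0.57 did not pass (adjusted p 0.387, edgeR quasi-likelihood).

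Synaptic and secreted late effectors went both ways, with a median of 0.00 over 29 genes (0.01 with all 12 libraries). At an unadjusted p under 0.05, 4 had a larger and 4 a smaller effect, and Rasl11a and Arc passed in opposite directions. Ptgs2, the inducible cyclooxygenase, had an effect of 1.02 at 1 hr and 0.64 at 3 hr, with 302, 375 and 311 CPM in 1 hr LTP slices, 256, 295 and 274 CPM in 3 hr LTP slices and 154 to 189 CPM in the controls. Its difference of -0.39 did not pass (adjusted p 0.533, edgeR quasi-likelihood). In the 24 genes of neuropeptides and their granin pathway the median was 0.03, and -0.01 with all 12 libraries. Cartpt, the precursor of the CART peptides, stood at 0.95 to 1.60 CPM in all 1 hr libraries, 1.36 to 1.63 CPM in 3 hr controls and 2.69 to 2.90 CPM in 3 hr LTP slices, and its difference of 0.80 did not pass (adjusted p 0.637, edgeR quasi-likelihood).

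Postsynaptic scaffolds and Ras/Rap regulators had the highest median of the 28 lists in the main fit, 0.17. Of 39 measured, 30 lay above 0, 10 had a larger and 1 a smaller effect at an unadjusted p under 0.05. Over all genes 0 passed in the edgeR quasi-likelihood test, while 1 did in DESeq2 (Sipa1l1). Sipa1l1, a Rap regulator of spines, stood at 270, 275 and 265 CPM in 1 hr controls, 303, 288 and 285 CPM in 1 hr LTP slices, 263, 252 and 266 CPM in 3 hr controls and 381, 345 and 377 CPM in 3 hr LTP slices. The 3 hr LTP libraries lay above all others. Its effects were 0.13 at 1 hr and 0.51 at 3 hr, and the difference of 0.38 (SE 0.089) did not pass (adjusted p 0.303, edgeR quasi-likelihood). The median of this list was 0.02 without 3 hr LTP replicate 3, with 6 members larger and 1 smaller at an unadjusted p under 0.05. Per animal its median ratio was 0.07, -0.21 and 0.09 at 1 hr and 0.26, -0.02 and 0.24 at 3 hr, with animal 2 lowest at each time. With offsets for GC content and length, glutamate receptors had a higher median (0.12) than scaffolds (0.11). With animal as a block over 11 libraries, glutamate receptors (0.116) and chromatin modifiers (0.101) lay above scaffolds (0.096).

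Glutamate receptors and their auxiliary subunits had a median difference of 0.10. Of 39 measured, 29 lay above 0, 7 had a larger and 1 a smaller effect at an unadjusted p under 0.05, and 0 passed in edgeR against 3 in DESeq2. Grin2b, the NR2B subunit of NMDA receptors, stood at 1184, 1103 and 1191 CPM in 1 hr controls, 1297, 1227 and 1307 CPM in 1 hr LTP slices, 924, 949 and 993 CPM in 3 hr controls and 1497, 1324 and 1612 CPM in 3 hr LTP slices. The controls were lower at 3 hr and the LTP libraries higher, and the difference was 0.54 (SE 0.11, adjusted p 0.168, edgeR quasi-likelihood). Grin2a, the NR2A subunit, stood at 239 to 293 CPM in all 1 hr libraries, 262 to 283 CPM in 3 hr controls and 390, 329 and 386 CPM in 3 hr LTP slices. Its difference was 0.49 (adjusted p 0.387), and that of Shisa6, which binds AMPA receptors, 0.66 (adjusted p 0.315, both edgeR quasi-likelihood).

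Sodium and calcium channels had a median of 0.12, with 25 of 35 above 0 and 8 larger and 2 smaller at an unadjusted p under 0.05. Beside voltage-gated channels, the list was drawn to include the Ryr and Itpr release channels and the leak channel Nalcn. Cacna1e, the pore of R-type calcium channels, had effects of 0.09 and 0.51, and Scn8a, the sodium channel of the axon initial segment, of 0.00 and 0.44. Their differences of 0.42 and 0.43 did not pass (adjusted p 0.387 and 0.449, edgeR quasi-likelihood). Potassium channels had a median of 0.06 over 79 measured of 92 listed, with 9 larger and 2 smaller, but of -0.01 without 3 hr LTP replicate 1 and of 0.00 with animal as a block. Kcnq3, a subunit of the M-current, stood at 191 to 211 CPM in 1 hr controls, 217 to 230 CPM in 1 hr LTP slices, 186 to 199 CPM in 3 hr controls and 251 to 289 CPM in 3 hr LTP slices. Its difference of 0.41 did not pass (adjusted p 0.279, edgeR quasi-likelihood), whereas Kcnj2, of the same list, passed in the opposite direction. On the presynaptic side, vesicle release genes had a median of 0.06 (38 of 52 above 0, 7 larger and 0 smaller at an unadjusted p under 0.05). Pclo, a large protein of the active zone, stood at 439, 373 and 415 CPM in 1 hr controls, 419, 405 and 426 CPM in 1 hr LTP slices, 280, 245 and 255 CPM in 3 hr controls and 382, 363 and 472 CPM in 3 hr LTP slices. The 3 hr controls were its lowest group, and the difference of 0.69 did not pass (adjusted p 0.14, edgeR quasi-likelihood). Adhesion organizers such as neurexins and teneurins had a median of 0.12, with 41 of 49 above 0 and 6 larger and 0 smaller.

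Chromatin modifiers and remodellers had a median of 0.11, with 76 of 94 above 0, 17 larger and 0 smaller at an unadjusted p under 0.05, and none past the threshold over all genes in edgeR, limma-voom or DESeq2. Kmt2c, a methyltransferase of histone H3 lysine at enhancers, stood at 165, 151 and 148 CPM in 1 hr controls, 190, 185 and 158 CPM in 1 hr LTP slices, 141, 132 and 143 CPM in 3 hr controls and 211, 186 and 214 CPM in 3 hr LTP slices. The 3 hr groups lay apart and the 1 hr groups overlapped, and the difference was 0.39 (SE 0.12, adjusted p 0.517, edgeR quasi-likelihood). Ep300, a histone acetyltransferase and coactivator of CREB that is also in the cAMP list, had effects of 0.22 and 0.61 and a difference of 0.39. The number of members with a larger effect turned on single 3 hr libraries, being 31 when 3 hr LTP replicate 2 was dropped, 5 when replicate 1 was and 4 when replicate 3 was, beside 1055, 530 and 636 of all genes. The median ratio of the list in animals 1, 2 and 3 was 0.04, 0.04 and 0.02 early and 0.18, 0.07 and 0.16 late, and these did not overlap.

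Of the 39 genes of the cAMP pathway, which forskolin acts on directly, 25 had a difference above 0 (median 0.07), and 7 had a larger and 0 a smaller effect at an unadjusted p under 0.05. Pde4b, a phosphodiesterase that degrades cAMP, stood at 217, 212 and 225 CPM in 1 hr controls, 259, 259 and 243 CPM in 1 hr LTP slices, 251, 272 and 224 CPM in 3 hr controls and 344, 360 and 349 CPM in 3 hr LTP slices. Its effects of 0.20 and 0.50 differed by 0.30, and those of Pde10a, another phosphodiesterase, of -0.01 and 0.27 by 0.28, and neither passed (adjusted p 0.558 and 0.613, edgeR quasi-likelihood). Within the NF-kB pathway, 17 of 27 had a difference above 0 (median 0.05), and Nfkb1 alone had an unadjusted p under 0.05. The list's median was -0.06 without 1 hr control replicate 3. The median effect of that list was 0.03 at 1 hr and 0.15 at 3 hr.

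Lists of translation, protein turnover and energy metabolism had medians below 0. Cytosolic ribosomal proteins had a median of -0.10, with 8 of 82 above 0 and 0 larger and 7 smaller at an unadjusted p under 0.05, and a median effect of -0.05 at 1 hr and -0.15 at 3 hr. Proteasome subunits had a median of -0.07 (6 of 39 above 0), glycolysis and hypoxia genes of -0.07 (12 of 33) and nuclear-encoded oxidative phosphorylation genes of -0.05 (16 of 80). At an unadjusted p under 0.05, 1 proteasome gene had a larger and 1 a smaller effect, 0 glycolysis genes had either, and 1 oxidative phosphorylation gene had a smaller one, shares near or below those of all genes. Without 3 hr LTP replicate 2, 21 ribosomal genes in place of 7 had a smaller effect at an unadjusted p under 0.05, as did 892 in place of 442 of all genes, whereas the median of that list was -0.06 when 3 hr LTP replicate 3 was dropped. When 1 hr LTP replicate 3 was dropped, the medians of the proteasome, oxidative phosphorylation and glycolysis lists were -0.02, 0.00 and 0.01. With all 12 libraries that of glycolysis was -0.02.

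The choice of test decided most single-gene calls within the lists. DESeq2, which called 80 genes over all, also called Grin2a, Grin2b and Shisa6 among glutamate receptors, Kcnq3 and Cacna1e among channels, Sipa1l1 among scaffolds and Pclo among vesicle release genes, each with a larger effect at 3 hr. Of the early response factors it called 4 with a smaller effect, Junb and Npas4 among them, and of the feedback regulators 5, with Ciart beside Btg2 and Pim3. It further called Has1 and Ccn1 toward a larger effect. In the chromatin, adhesion, cAMP, ribosomal, proteasome and oxidative phosphorylation lists it called 0 members, as did edgeR and limma-voom.

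The size of the positive medians also moved with single libraries. Over the 11 fits that each left out 1 library, the median ran from 0.02 to 0.23 for scaffolds, 0.06 to 0.18 for glutamate receptors, 0.07 to 0.17 for sodium and calcium channels, 0.01 to 0.11 for vesicle release genes, 0.06 to 0.13 for adhesion organizers, 0.05 to 0.15 for chromatin modifiers and 0.03 to 0.11 for the cAMP pathway. The lowest came when 3 hr LTP replicate 3 was dropped for scaffolds and adhesion organizers, 3 hr LTP replicate 1 for glutamate receptors, 1 hr control replicate 3 for sodium and calcium channels, 1 hr control replicate 1 for vesicle release genes and chromatin modifiers, and 3 hr control replicate 1 for the cAMP pathway. Dropping 3 hr LTP replicate 2 left 11 glutamate receptor, 12 vesicle release and 13 adhesion genes with a larger effect at an unadjusted p under 0.05, beside 1055 of all genes. Dropping 3 hr LTP replicate 3 left 5, 5 and 3, beside 636. In the cAMP list 3 such genes were left when 3 hr LTP replicate 1 or 1 hr control replicate 3 was dropped, beside 530 and 559 of all genes.

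**Figure D4:**
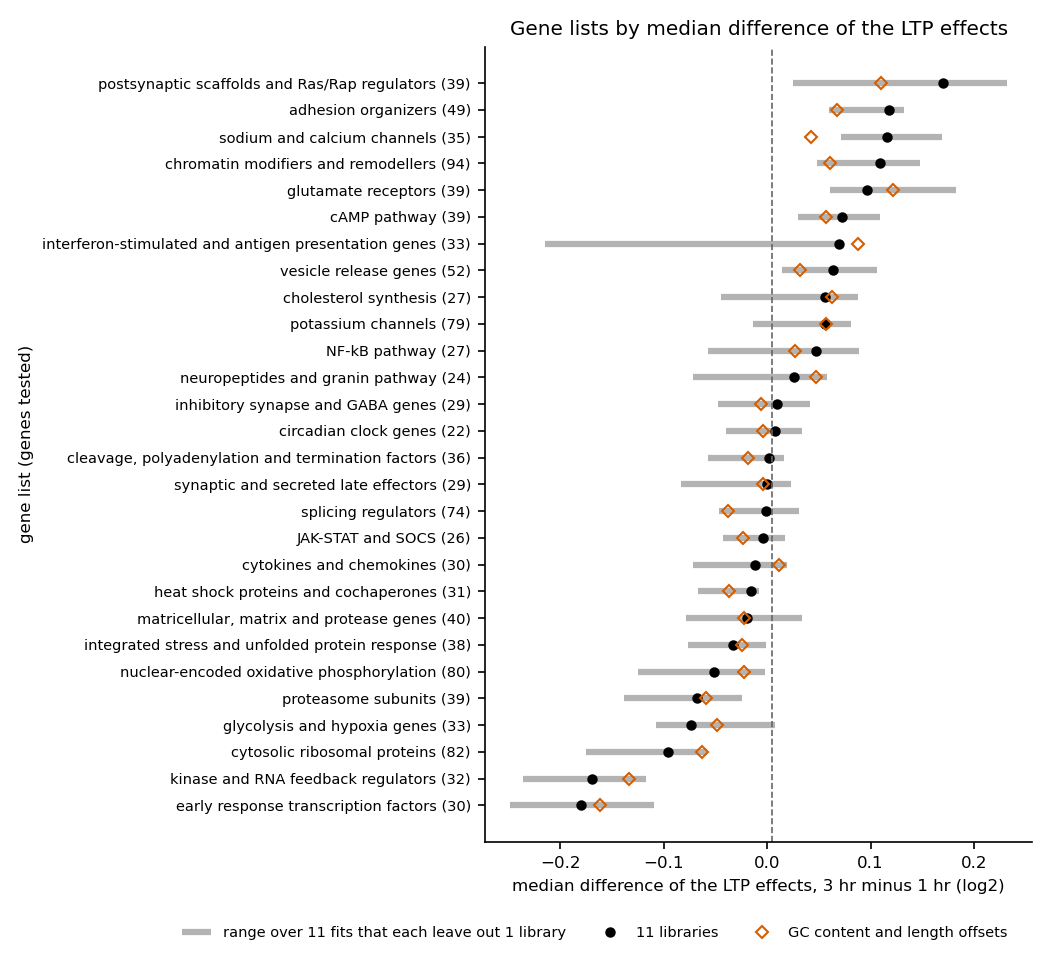
Median difference of the LTP effects (x axis, log2, 3 hr minus 1 hr) of the 28 gene lists (y axis, genes measured in brackets) with 11 libraries (dots), with offsets for GC content and length (diamonds) and over the 11 fits that each left out 1 library (bars); the dashed line is the median of all genes. With 11 libraries, scaffolds lie highest at 0.17 and early response factors lowest at -0.18.

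The medians moved with gene size. Over 15083 protein-coding genes, the share with a larger effect at an unadjusted p under 0.05 was 1.91%, 2.15%, 2.63% and 9.63% in 4 equal groups from the shortest to the longest gene span, and the share with a smaller effect 3.87%, 2.33%, 2.10% and 1.43%. The median difference ran from -0.05 to 0.06 over these groups, and the share of genes above 0 from 39.9% to 64.4%. By exonic length the shares with a larger effect were 1.8%, 2.12%, 3.50% and 8.88%. By GC content of the exons they were 4.53%, 5.22%, 4.19% and 2.36%. The median span was 100746 bases in the scaffold list, 128281 in the glutamate receptor list and 3266 in the ribosomal list. It was 62292.5 bases in the vesicle release list, 88215 in the cAMP list and 7245 in the oxidative phosphorylation list. With offsets for GC content and exonic length in each library, the median was 0.11 for scaffolds, 0.12 for glutamate receptors, 0.06 for chromatin modifiers, 0.07 for adhesion organizers, 0.04 for sodium and calcium channels (0.01 with animal as a block as well) and -0.06 for ribosomal proteins. The signs of these lists were the same in all 24 alternatives with a test, and the part of gene length in their size was not tested further.

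**Figure D5:**
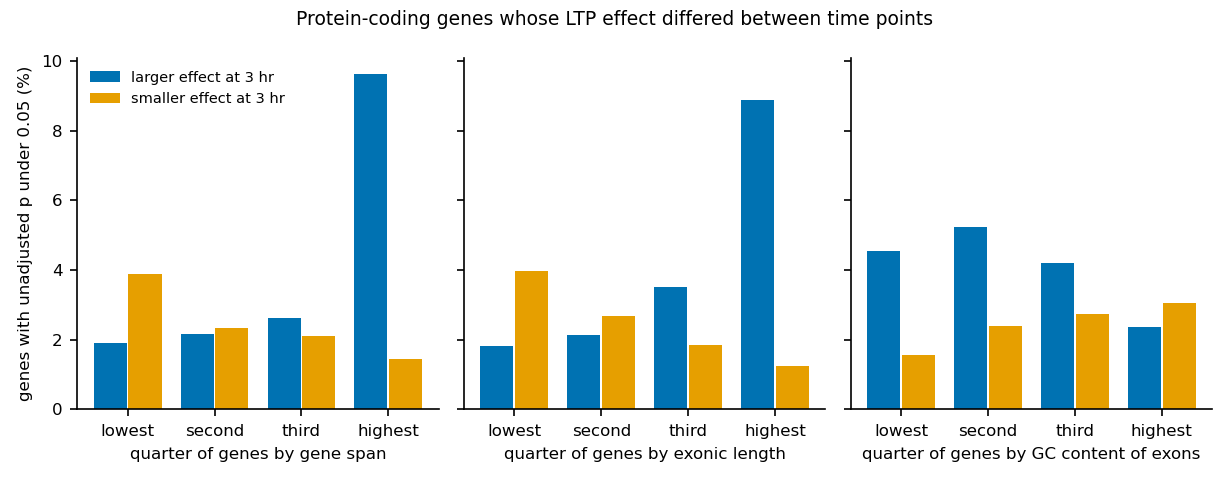
Share of protein-coding genes with an unadjusted p under 0.05 (y axis, percent, from 0) in 4 equal groups (x axis) by gene span, exonic length and GC content of exons, for a larger (blue) and a smaller (orange) effect at 3 hr. The group of longest spans has 9.63% with a larger effect, against 1.91% in the shortest.

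Cell type markers were checked because the slices could differ in their cells. The 6 pyramidal neuron markers had a median difference of 0.16, with 5 above 0. That median was -0.03 without 3 hr LTP replicate 3 and 0.04 with animal as a block over 11 libraries. Their summed level was 3203, 2786 and 3362 CPM in 1 hr LTP slices and 3476, 2697 and 4302 CPM in 3 hr LTP slices, while all controls lay between 3104 and 3303 CPM. Replicate 2 was lowest in both LTP groups. For the scaffold list it was the LTP to control ratio, an unlike measure, that was lowest in animal 2 at each time. At 1 hr that ratio is taken over the control library set aside. The part of these markers in the neuronal lists was not tested. All 6 were measured and none was at 0 in any library. Dentate granule cell markers, 6 of 6 measured, still summed to 219 to 368 CPM over the 12 libraries, although the dentate gyrus had been trimmed, and 0 of them had an unadjusted p under 0.05 for the difference. Astrocyte (-0.06), oligodendrocyte (-0.13) and oligodendrocyte precursor markers (-0.17) had medians below 0, with 1 precursor marker smaller at an unadjusted p under 0.05, and meningeal fibroblast markers one of 0.22 (5 of 6 above 0). The meningeal median was 0.09 with all 12 libraries and -0.21 without 1 hr control replicate 1, so its direction turned on a single library. Mural cell markers had a median difference of 0.34, with 4 of 8 larger and 0 smaller at an unadjusted p under 0.05, and endothelial markers of 0.29, with 8 of 8 above 0 and 2 larger. Mural markers summed to 206 to 214 CPM in 1 hr controls, 181 to 198 CPM in 1 hr LTP slices, 165 to 171 CPM in 3 hr controls and 160 to 166 CPM in 3 hr LTP slices. Their 1 hr LTP libraries lay below the 1 hr controls, and the part of mural and meningeal cells in the difference of Foxc1 was not tested. Choroid plexus markers, of which 5 of 6 passed the filter and 2 were at 0 in at least 1 library, summed to 23.7 to 29.5 CPM over all libraries.

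Matricellular, matrix and protease genes had a median of -0.02 (0.01 with all 12 libraries) over 40 measured of 42 listed, with 6 larger and 1 smaller at an unadjusted p under 0.05. Has1, which makes hyaluronan, stood at 0.336, 0.248 and 0.592 CPM in 1 hr controls, 0.583, 0.396 and 0.188 CPM in 1 hr LTP slices, 0.389, 0.545 and 0.389 CPM in 3 hr controls and 2.86, 1.8 and 2.27 CPM in 3 hr LTP slices. The 3 hr LTP libraries alone were high, and the difference of 2.67 (SE 0.55) did not pass at these low counts (adjusted p 0.18, edgeR quasi-likelihood). Tnr, tenascin-R of perineuronal nets, stood at 97.3 to 116 CPM in the 1 hr libraries and 3 hr controls and at 150, 135 and 152 CPM in 3 hr LTP slices, and its difference of 0.41 did not pass (adjusted p 0.387, edgeR quasi-likelihood).

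Among non-coding genes, those of the interval that Meg3 opens and Mirg closes (chromosome 12, 109541001 to 109749460) had a median difference of 0.56 over 65 measured of 90 listed, with 54 above 0 and 15 larger and 0 smaller at an unadjusted p under 0.05. The interval holds many miRNA and small nucleolar RNA loci, some of them near-identical copies. The median ratio in animals 1, 2 and 3 was 0.31, 0.07 and 0.23 early and 0.94, 0.86 and 0.85 late, with a wide gap between the times. Most of these members were rare, with a median level of 0.553 CPM. Mirg and Meg3, given because they bound the interval, and Rian, an abundant host transcript within it that was chosen after its values were seen, differed in size. Mirg had effects of 0.20 and 0.83 and a difference of 0.63 (SE 0.13, adjusted p 0.168), which DESeq2 called, as did edgeR without 3 hr LTP replicate 3. Rian (mean 681 CPM) had a difference of 0.15 (adjusted p 0.883, edgeR quasi-likelihood), while Meg3 had effects of 0.24 and 0.43 and a difference of 0.19 (adjusted p 0.953, both edgeR quasi-likelihood). Reads of total RNA over a miRNA locus measure longer transcripts there and not the mature miRNA.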

How the data were processed

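Total RNA of mouse hippocampal slices had been depleted of ribosomal RNA and sequenced as stranded libraries, and the authors aligned the reads with STAR to mm10 and deposited counts of reads per gene, not normalized, made with Bioconductor packages; whether the counting used strand is not given in the sources used here. The table held 41091 gene IDs, of which 40217 matched the annotation used for names. Library totals of 37118382 to 50815001 put 3 counts at 0.059 to 0.0808 CPM.

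A model of the 4 groups was fitted with edgeR 4.0.16 (R 4.3.3, limma 3.58.1; filterByExpr, TMM, quasi-likelihood F test), and the contrast between the LTP effects was tested at a Benjamini-Hochberg adjusted p under 0.1. LTP effects at each time also needed a fold change over 1.2. CPM were scaled by TMM over all 12 libraries, and ratios within animals used a pseudocount of 0.1 CPM. The fits were tested on simulated counts. Replicates are animals at each time.

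By the labels, control and LTP slices with the same number came from the same animal. Their deviations from the group means over 18240 genes correlated at -0.02, -0.12 and 0.07 for animals 1, 2 and 3 of 1 hr and at 0.03, -0.05 and 0.18 for those of 3 hr.

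Genes named were those called with 11 or 12 libraries, the 12 with the smallest unadjusted p in each direction at a mean of at least 1 CPM, and the 3 with the smallest unadjusted p in each list. The comparison and the lists were chosen with earlier results of these data known. Alternatives were another test (DESeq2 1.42.0, limma-voom), other scalings and filters, the animal as a block, offsets for GC content and exonic length, and leaving out each library. Some genes that the rule selects are not reported here.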

Additional observations from a re-analysis of the deposited data

Results flagged for a closer look

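The LTP effect differed between 1 hr and 3 hr by the test of the difference itself (edgeR quasi-likelihood, Benjamini-Hochberg adjusted p under 0.1) in 11 genes. The log2 difference was -1.31 for Btg2, -1.06 for Egr2, -1.0 for Kcnj2, -0.84 for Gm13889, -0.75 for Pim3 and -0.68 for Arc. It was 1.25 for Foxc1, 1.16 for Rasl11a, 1.01 for Txndc11, 0.83 for Rnf217 and 0.69 for Nfkb1.

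Every animal moved one way at 1 hr and the other way at 3 hr in 399 of 18584 genes, and in 2 of the 95 genes chosen to be named, which is near the same share. In these, every animal moved up with LTP at 1 hr and down at 3 hr, and a difference of this kind was not tested as such. For Cxcl5, a neutrophil chemokine, the log2 ratios within animals 1, 2 and 3 were 1.82, 2.36 and 0.52 at 1 hr and -0.40, -0.54 and -0.59 at 3 hr. Its level was low, at 0.93, 0.538 and 0.592 CPM in 1 hr controls, 3.55, 3.17 and 0.894 CPM in 1 hr LTP slices, 0.995, 2.09 and 1.25 CPM in 3 hr controls and 0.727, 1.41 and 0.792 CPM in 3 hr LTP slices, and the model gave a difference of -2.28 (SE 0.69, adjusted p 0.5, edgeR quasi-likelihood). DESeq2 called it (adjusted p 0.0834), as did the edgeR fit without 1 hr LTP replicate 3. For Dnaja1, a cochaperone of HSP70, the ratios were 0.07, 0.36 and 0.05 at 1 hr and -0.21, -0.01 and -0.01 at 3 hr, and the difference was -0.16 (adjusted p 0.878, edgeR quasi-likelihood).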

How the results depend on the processing

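None of the alternatives reversed the sign of a called gene. Against 11 genes called (5 with a larger and 6 with a smaller effect at 3 hr), all 12 libraries gave 10 (7 and 3). DESeq2 gave 80 (52 and 28), among them all 11, and DESeq2 with all 12 libraries, chosen after seeing the data, 86 (65 and 21). Offsets for GC content and length gave 29 (19 and 10), again with all 11, and no filter beyond 1 count gave 102 (57 and 45). With animal as a replicate block the 11 libraries gave 13 calls (5 and 8), of which 7 were shared, all 12 libraries gave 7 (4 and 3), and the block with the offsets gave 28 (18 and 10). The cause of these shifts was not tested.

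Leaving out 1 of the 11 libraries gave 1 to 67 calls, with 0 to 54 larger and 1 to 17 smaller. The lowest came without 1 hr control replicate 3 (1 call) and the highest without 3 hr LTP replicate 2 (67), with 25 without 1 hr LTP replicate 3 and 22 without 3 hr LTP replicate 3. Dropping 1 hr LTP replicate 1, 1 hr LTP replicate 2 or 1 hr control replicate 1 gave 7 calls, dropping 3 hr LTP replicate 1 or 3 hr control replicate 2 gave 4, and dropping 3 hr control replicate 3 gave 3. With 12 libraries, leaving out 1 of the others, chosen after seeing the data, gave 4 to 168 calls, with 2 to 147 larger and 2 to 21 smaller, and the highest again came without 3 hr LTP replicate 2. Of these, 27 (8 and 19) came without 1 hr LTP replicate 3, and 9 larger effects without 3 hr LTP replicate 3. The log2 ratios within animals lay above without overlap in 2417 genes and below in 2621 without animal 2 at 1 hr, against 1320 and 1187.

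Over the genes named, 3120 values under an alternative kept the sign and the side of the threshold, 165 kept the sign and passed, and 130 kept the sign and no longer passed. Of the medians of the gene lists and annotation classes, 255 moved by at least the SD of the list's median ratio over the 3 animals of 3 hr, and 1077 moved by less. Fitting each time point on its own gave values with no test. With 3 animals a group and 2 controls at 1 hr, the smallest difference called was that of Arc, -0.68.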

Other observations

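Several lists lay near the median of all genes. Of 74 splicing regulators, 37 had a difference above 0, and 5 had a larger and 1 a smaller effect at 3 hr at an unadjusted p under 0.05. With all 12 libraries these counts were 6 and 4. Without 3 hr LTP replicate 3 they were 3 and 8, beside 636 and 728 of all genes. Celf2, an RNA-binding protein that steers neuronal splicing, had an LTP effect of 0.14 at 1 hr and 0.60 at 3 hr, a difference of 0.46 that did not pass (adjusted p 0.269, edgeR quasi-likelihood) and that DESeq2 called. Hnrnpu, a nuclear matrix and splicing protein, went the other way, from 0.40 to 0.11. Factors of cleavage, polyadenylation and termination had a median of 0.00, with 0 larger and 3 smaller of 36, among them Clp1 with a difference of -0.43. Without 3 hr LTP replicate 3 the counts of this list were 0 and 0, beside 636 and 728 of all genes. Without 3 hr LTP replicate 2 they were 1 and 4, beside 1055 and 892.

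The circadian clock list also split. Its repressor Cry1 had an effect of 0.35 at 1 hr and -0.02 at 3 hr, while Per2 had 0.09 and 0.47, and neither difference passed. The list's median of 0.01 changed sign in 15 of 24 alternatives. Of 26 JAK-STAT and SOCS genes, 0 had a larger and 2 a smaller effect at an unadjusted p under 0.05, and with all 12 libraries 0 had either. Socs3, the feedback inhibitor of this pathway, had effects of 0.34 and -0.06, and its control level was higher at 3 hr by 1.14 on the log2 scale.

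Of 38 genes of the integrated stress and unfolded protein response the median was -0.03, with Txndc11 the member that passed and Atf4, the central factor of that response, at 0.26 and 0.03. Heat shock proteins and cochaperones (31 measured, median -0.02) had 0 members at an unadjusted p under 0.05 in either direction and 0 called by edgeR, limma-voom or DESeq2. Cytokines and chemokines had a median of -0.01 over 30 measured of 32 listed, and of 0.06 with all 12 libraries. Interferon and antigen presentation genes had a median of 0.07 over 33, which was -0.21 when 3 hr LTP replicate 3 was dropped. Genes of inhibitory synapses had a median of 0.01 over 29 of 31, which kept its sign in 7 of 24 alternatives and was -0.02 with all 12 libraries. Cholesterol synthesis genes had a median of 0.06 over 27, with 20 above 0, which was -0.04 when 1 hr control replicate 1 was dropped. Among classes of the annotation, 461 lincRNA genes had a median of 0.10, with 34 larger and 8 smaller at an unadjusted p under 0.05. That median was 0.05 without 3 hr LTP replicate 1 and -0.02 with no filter beyond 1 count.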
